A study of Mus musculus with 6 samples.

Results

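The *Prrc2* family and the factors of the eIF4F complex were described in mouse cells sorted at E10.5 that either carried or lacked the *mir-302* microRNAs. The 10 genes were the 3 *Prrc2* genes (*Prrc2a*, *Prrc2b* and *Prrc2c*), the 3 eIF4G scaffolds (*Eif4g1*, *Eif4g2* and *Eif4g3*), the cap-binding protein *Eif4e*, the helicases *Eif4a1* and *Eif4a2*, and the inhibitor *Eif4ebp1*. All 10 were among the 55414 genes listed, and all 10 passed the filter on low counts that left 16353 genes for testing. *Prrc2c* was picked from these same libraries as the nuclear-encoded gene with the smallest p among genes lower in the knockout, so its difference between genotypes is described here without a test. The other 9 genes were added because of their family or their role.

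Messenger RNA was sequenced in 6 libraries, 3 wild-type (WT, labelled miR-302WT) and 3 knockout (KO, labelled miR-302KO). Cells of both groups came from the trunks of E10.5 embryos, carried Pdx1-Cre and a tdTomato reporter that Cre switches on, and were sorted by that reporter. The KO was inherited from heterozygous parents and so was present in the whole embryo, not only in the sorted cells. *Pdx1* drives Cre in the early pancreas and also in neighbouring gut epithelium, and the reporter stays on in all descendants of a cell that once had Cre. The labels did not say how many embryos made up a library or whether libraries came from different litters. Every p-value below therefore compares the genotypes with libraries as the unit.

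Protein synthesis on most mRNAs begins when eIF4F assembles at the 5′ cap: eIF4E binds the cap, eIF4A unwinds the leader and eIF4G holds them together and recruits the small ribosomal subunit. The protein encoded by *Eif4ebp1* blocks the joining of eIF4E to eIF4G until mTORC1 phosphorylates it. PRRC2 proteins are large, mostly unstructured RNA-binding proteins that associate with initiation factors and help ribosomes scan past upstream start codons. PRRC2C is found in stress granules, and PRRC2A binds RNA that carries the m6A mark. The *mir-302* microRNAs are abundant in the early embryo and lower the level or the translation of mRNAs whose 3′ untranslated regions pair with the seed, bases 2 to 8 of the microRNA.

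The mature sequences of the cluster are shown first because the KO libraries came from *mir-302* knockout embryos. They were read from RefSeq (GRCm38.p6, chromosome 3), with the seed in capitals.
mmu-miR-302b-3p: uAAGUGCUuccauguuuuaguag
mmu-miR-302c-3p: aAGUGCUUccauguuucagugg
mmu-miR-302d-3p: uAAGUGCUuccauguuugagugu
mmu-miR-367-3p: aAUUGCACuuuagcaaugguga
The table held no mature entry for *miR-302a-3p*, which is not shown. *miR-302b* and *miR-302d* shared the seed AAGUGCU. The table's entry for *miR-302c* began 1 base later, which gave it AGUGCUU. *miR-367*, from the same cluster, had an unrelated seed. Whether the knockout also removed *miR-367* was not given in the sources used here.

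The eIF4F genes *Eif4g2*, *Eif4e* and *Eif4a2* each held a match to the AAGUGCU seed in the longest annotated 3′ untranslated region (GENCODE M21, GRCm38), and none of the *Prrc2* genes did. The motif searched was AGCACTT on the transcript strand, together with GCACTTA, which overlaps it and makes up AGCACTTA where both occur. The 3 sites are shown with the match in capitals and the flanking bases in lower case, since they are the only matches that this search found in the 10 genes.
Eif4g2 (chromosome 7, match starting at base 4227 of 4942): aagaggtttccAGCACTTgtctctctctgc
Eif4e (chromosome 3, base 2228 of 4192): ttaataactacAGCACTTAcataataagtt
Eif4a2 (chromosome 16, base 1574 of 1618): accatctgccaAGCACTTgtctacttccta
The match in *Eif4e* was the longest of them, and that in *Eif4a2* lay close to the end of the transcript. Such matches were present in 30% of these 10 genes and in 21.5% of the 13771 tested coding genes with an annotated 3′ untranslated region (2960 genes). Matches to the *miR-367* seed were found in *Prrc2b* (1) and *Eif4g2* (2), and 14.4% of the same coding genes had at least 1. A match is a stretch of letters and was not measured as a bound site.

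Library totals ran from 17352498 to 26634523 counts. Levels are given in CPM, counts divided by the library total after TMM scaling and brought to a common total. The share of counts from mitochondrial genes was 0.345% to 0.442% in WT and 0.223% to 0.290% in KO, without overlap. Hemoglobin genes took 1.59% of the counts of WT 3 and 0.655% of those of KO 1, 0.0334% in KO 3 and at most 0.000286% in the other libraries. All 14 pancreatic and epithelial markers listed were detected, with a summed level of 3539 to 3925 CPM in WT and 3821 to 4287 CPM in KO. The highest of them in every library were the epithelial genes *Krt8*, *Krt18*, *Cdh1* and *Epcam*. The lowest were *Ptf1a* (1.80 to 2.68 CPM in WT, 1.52 to 4.96 CPM in KO), *Nkx6-1* and *Mnx1*. *Nkx6-1* was at 1.36 to 2.35 CPM in WT and 0.762 to 4.73 CPM in KO, and *Mnx1* at 3.41 to 5.875 and 4.30 to 16.07 CPM. *Pdx1* itself was at 90.6 to 106.1 CPM in WT and 73.1 to 107.5 CPM in KO. For 3 of the 14 markers (*Gata4*, *Gata6* and *Krt18*, 21.4%) every KO library was higher, against 8.36% of all tested genes, and DESeq2 called 2 of the 14 higher. The part of these differences in the results below was not tested. The summed levels of the markers of other cell types overlapped between genotypes, with blood at 3.72 to 15980 CPM in WT and 4.27 to 6403 CPM in KO, mesenchyme at 195 to 1100 and 50.4 to 1112 CPM, liver at 1184 to 2423 and 1091 to 2477 CPM, neural genes at 149 to 327 and 149 to 337 CPM, and endothelium at 7.87 to 10.4 and 1.88 to 30.8 CPM. These sums do not show single genes, and *Isl1* alone gave 92.71 of the 148.9 CPM of the neural sum in WT 1. Of the 5 neural markers tested, DESeq2 called 1 lower in KO and 0 higher. *Dcx*, one of them, was at 8.483 to 10.28 CPM in WT and 3.802 to 5.469 CPM in KO. Of the 9 mesenchyme markers tested, DESeq2 called 0. *Tbx18* among these was at 2.875 to 10.63 CPM in WT and 0 to 2.83 CPM in KO. In both lists 0 markers had every KO library higher. No listed marker was at 0 in all 6 libraries. In such sorted bulk samples, fewer cells of a type and less RNA per cell cannot be told apart.

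*Prrc2c*, the stress granule member of the family, was at 107.6, 104.7 and 115.2 CPM in WT 1, 2 and 3. In KO 1, 2 and 3 it was at 66.9, 74.0 and 74.3 CPM. All 3 KO libraries lay well below all 3 WT libraries, and the spread within each genotype was small. WT averaged 109.2 ± 5.44 CPM and KO averaged 71.7 ± 4.22 CPM (SD over 3 libraries), and the fitted log2 fold change was -0.61 (SE 0.08). These values chose the gene and carry no test. Among all tested genes, 7.99% had every KO library below every WT library. The gene just outside the rule was *Sox8*, which encodes a neural crest and gonad transcription factor, at 13.2, 9.16 and 10.1 CPM in WT and 3.95, 2.96 and 2.88 CPM in KO. *Lars2*, the mitochondrial leucyl-tRNA synthetase, came next at 166, 162 and 179.8 CPM in WT and 124, 123 and 122 CPM in KO.

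The *Prrc2c* value was refitted under settings that bear on the mitochondrial share, the hemoglobin share and transcript length. With mitochondrial genes left out of the scaling the log2 fold change was still -0.61. Without WT 3 and KO 1, the libraries with the most hemoglobin counts, it was -0.49. The longest coding transcript of *Prrc2c* had 11502 bases, and 1.28% of tested genes had one at least as long (median 2909 bases). With offsets for GC content and length added to the fit the log2 fold change was -0.41. It was below 0 under all 14 alternatives tried. These reuse the libraries on which the gene was chosen, so the kept sign is a description and no test.

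*Prrc2a*, an m6A reader, was at 12.6, 15.5 and 15.5 CPM in WT and 11.1, 9.46 and 10.503 CPM in KO. It was the second *Prrc2* gene with all KO libraries below all WT libraries. The means were 14.5 ± 1.69 CPM for WT and 10.3 ± 0.818 CPM for KO. The log2 fold change was -0.49 (SE 0.16, 95% interval -0.87 to -0.11), with an edgeR adjusted p of 0.321 over all genes, so the difference was not called. Without adjustment its edgeR p was 0.0193, a limit of 0.05 that 3.97% of all tested genes passed on the lower side and 6.42% on the higher side. Between 166 and 320 reads per library were counted on this gene. Without WT 3 and KO 1 its log2 fold change was -0.47.

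*Prrc2b* had the higher mean in KO and varied more. It was at 18.6, 15.1 and 22.1 CPM in WT and 31.4, 28.8 and 17.4 CPM in KO. KO 1 and KO 2 lay above every WT library, whereas KO 3 lay inside the WT range. Mean levels of 18.6 ± 3.53 CPM in WT and 25.9 ± 7.45 CPM in KO gave a log2 fold change of 0.48 (SE 0.25, 95% interval -0.12 to 1.07) and an edgeR adjusted p of 0.597. A single KO library moved this value from 0.33 (without KO 1) to 0.73 (without KO 3). Of the exon bases of *Prrc2b*, 738 overlap exons of *Gm13610* on the opposite strand, a gene with 8 counts in total.

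**Figure D1:**
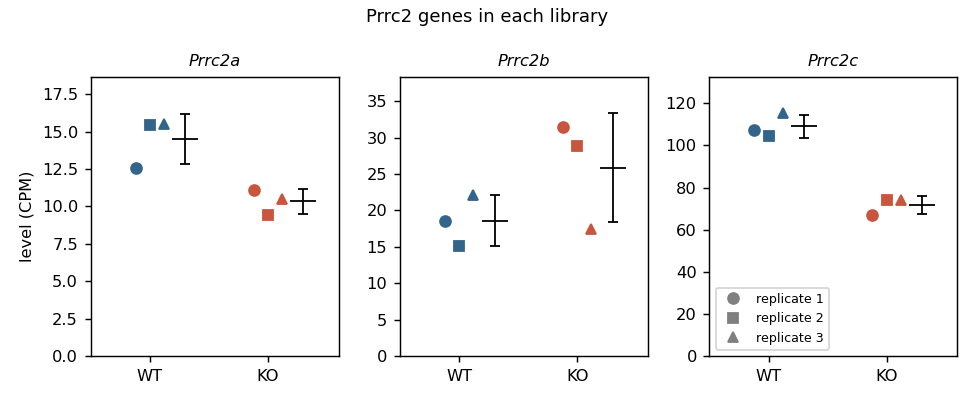
Levels of the 3 *Prrc2* genes in CPM, with 1 point per library (shapes give the replicate number) and the mean ± SD of each genotype as black bars, on axes that start at 0. The KO points of *Prrc2a* and *Prrc2c* lie below all WT points, and those of *Prrc2b* spread from 17.4 to 31.4 CPM across the WT range.

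*Prrc2c* was the most abundant of the family in both genotypes. Per length of the longest coding transcript, its share of the 3 *Prrc2* genes was 72.4, 71.3 and 69.8% in WT and 56.1, 61.2 and 67.2% in KO. The share was lower in all KO libraries, with 71.2 ± 1.29% in WT and 61.5 ± 5.55% in KO, and carries no test because *Prrc2c* enters it. With the union of all exons as the length it was 65.7 ± 1.43% in WT and 55.2 ± 5.89% in KO, with KO 1 at 49.5%. The summed level of the 3 genes was 142.3 ± 9.34 CPM in WT and 108.0 ± 5.16 CPM in KO. The higher mean of *Prrc2b* in KO was thus smaller in CPM than the lower mean of *Prrc2c*.

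The 5 genes whose log2 CPM followed *Prrc2c* most closely over the 6 libraries were *C530008M17Rik* (Pearson r = 0.995), *Usp34* (0.995), *Ppm1l* (0.994), *Abhd2* (0.994) and *Cwf19l2* (0.993). *Usp34*, a large ubiquitin-specific protease, was at 48.1, 48.2 and 49.8 CPM in WT and 28.0, 31.5 and 30.5 CPM in KO. A total of 70 genes had an r above 0.95 with *Prrc2c*. Since the 6 libraries fall into 2 genotypes, these values describe mostly a shared difference between genotypes. Among the members themselves the highest values were 0.86 for *Prrc2a* with *Prrc2c* and for *Eif4g1* with *Eif4g2*, and 0.82 for *Eif4a1* with *Eif4a2*. The lowest was -0.83, for *Eif4a2* with *Eif4ebp1*.

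The 7 eIF4F genes had log2 fold changes under 0.3 in size, with 95% intervals that together reached from -0.56 to 0.45. With 1 library left out, the size passed 0.3 for *Eif4a1* (-0.39 without KO 2), *Eif4g1* (-0.33 without KO 3) and *Eif4g3* (0.32 without WT 2), none of them called. With all libraries none of the 7 was called by edgeR's quasi-likelihood test, by which 0 of 16353 genes (0%) were called at an adjusted p under 0.05, although 217 genes and none of these 7 were called when WT 2 was left out. Below an unadjusted p of 0.05, edgeR had 10.4% of all genes and none of these 7. DESeq2 called 4.87% of the 14353 genes it gave an adjusted p (606 higher and 93 lower in KO), and again none of the 7.

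Among the scaffolds, *Eif4g1*, the main eIF4G, was at 382, 437 and 475 CPM in WT and 328, 341 and 506 CPM in KO. KO 1 and KO 2 lay below every WT library and KO 3 above every one. Its log2 fold change was -0.14 (SE 0.18, 95% interval -0.56 to 0.28, edgeR adjusted p = 0.885), and without WT 3 and KO 1 it turned to 0.07. *Eif4g2*, which encodes the scaffold DAP5 that lacks the eIF4E-binding part, was the most counted of the 10 genes, at 2196, 2146 and 2318 CPM in WT and 2058, 1889.9 and 2352 CPM in KO. Both ranges overlapped, with a log2 fold change of -0.08 (SE 0.09, 95% interval -0.30 to 0.14, edgeR adjusted p = 0.869) that turned to 0.04 with GC and length offsets and to 0.01 without KO 2. It held 1 of the 3 seed matches shown above. *Eif4g3*, an eIF4G1 relative, was at 95.7, 131.6 and 100.8 CPM in WT and 120.8, 114.9 and 128.3 CPM in KO. All KO values fell inside the WT range. The log2 fold change was 0.15 (SE 0.13, 95% interval -0.15 to 0.45, edgeR adjusted p = 0.802).

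*Eif4e*, the cap-binding protein, was at 422, 382 and 372 CPM in WT and 434, 407 and 411 CPM in KO, averaging 392 ± 26.5 and 417 ± 14.4 CPM. The log2 fold change was 0.09 (SE 0.08, 95% interval -0.11 to 0.28, edgeR adjusted p = 0.827). This gene had the longest seed match, AGCACTTA, of which no effect was tested. Its inhibitor *Eif4ebp1* was at 67.9, 58.2 and 68.6 CPM in WT and 68.8, 61.1 and 74.6 CPM in KO. The genotypes overlapped here as well, with a log2 fold change of 0.07 (SE 0.11, 95% interval -0.19 to 0.34, edgeR adjusted p = 0.916).

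*Eif4a1*, the main helicase of the complex, was at 929.6, 867 and 947 CPM in WT and 723, 894 and 657 CPM in KO. KO 2 lay within the WT range and the other KO libraries below it. The log2 fold change was -0.27 (SE 0.12, 95% interval -0.56 to 0.02, edgeR adjusted p = 0.516), and ran from -0.39 (without KO 2) to -0.14 (without KO 3) with 1 library left out. Of the 100-base windows of its transcript, 60.8% are identical in the pseudogene *Eif4a-ps4*, so its reads could have been split between them. Counts on *Eif4a-ps4* were 12.3% to 13.1% of the counts on the pair in every library. The sum of the pair was 1050 ± 48.8 CPM in WT and 867 ± 138 CPM in KO, a log2 ratio of -0.28.

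*Eif4a2*, the closely related second helicase gene, was at 128.3, 139.8 and 126.77 CPM in WT and 119.97, 126.76 and 98.0 CPM in KO. The genotypes were separated by a hair, KO 2 lying just under WT 3. The log2 fold change was -0.20 (SE 0.11, 95% interval -0.45 to 0.06, edgeR adjusted p = 0.616), and was -0.06 without KO 3. *Eif4a2* carried a seed match, of which no effect was tested. Part of its exons (194 bases) overlap exons of *Rfc4* on the opposite strand, and *Rfc4* itself had 1429 to 2806 counts per library. Whether the counting used strand was not given in the sources used here, so how reads from that stretch were assigned is not known. In all, 3 of the 10 genes (*Prrc2a*, *Prrc2c* and *Eif4a2*) had every KO library below every WT library and 0 had every one above, against 7.99% and 8.36% of all tested genes. *Prrc2c* had to be among them by its choice.

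**Figure D2:**
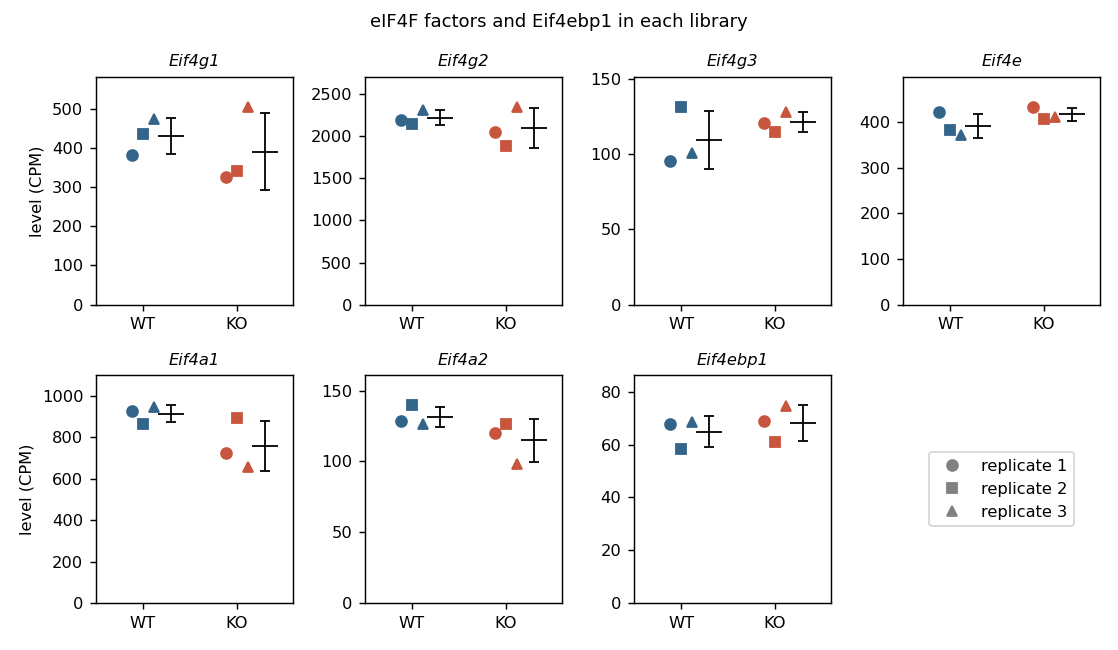
Levels of the 7 eIF4F genes in CPM, with 1 point per library (shapes give the replicate number) and the mean ± SD of each genotype as black bars, on axes that start at 0. WT and KO points overlap in 6 panels, and in that of *Eif4a2* the highest KO point (126.76 CPM) sits level with the lowest WT point (126.77 CPM).

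The balance between related subunits was measured as the share of 1 gene in the sum of its group. *Eif4a2* made up 8.29, 9.55 and 8.07% of the summed length-scaled level of *Eif4a1* and *Eif4a2* in WT and 9.81, 8.50 and 8.90% in KO. The means of 8.64 ± 0.798% and 9.07 ± 0.670% differed by 0.43 percentage points (two-sided exact permutation test, p = 0.5, adjusted over the 2 shares tested 0.7). *Eif4g1* made up 20.8 ± 1.44% of the 3 scaffolds in WT and 19.8 ± 2.45% in KO, a difference of -0.94 percentage points (exact permutation p = 0.7, adjusted 0.7). Single libraries moved both differences: that of *Eif4a2* ran from 0.06 (without KO 1) to 0.89 percentage points (without WT 2), and that of *Eif4g1* from -2.25 (without KO 3) to 0.18 (without KO 1). With 3 libraries against 3 this test cannot give a p below 0.1.

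**Figure D3:**
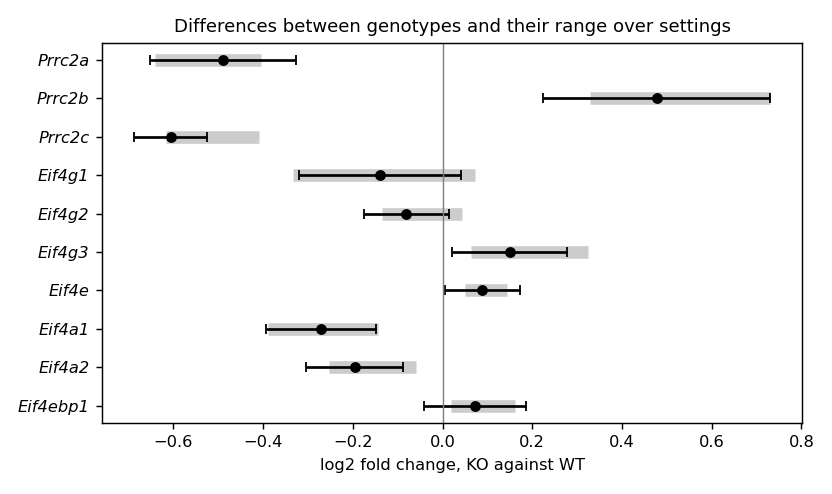
Log2 fold change of each gene, KO against WT (black points, bars are the SE of the edgeR fit), with grey bars from the lowest to the highest value over the 14 other settings. Only the grey bars of *Eif4g1* and *Eif4g2* cross 0. *Prrc2a* and *Prrc2c* stay below 0 and *Prrc2b* stays above 0, and the remaining eIF4F genes keep their sign as well.

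Levels between genes were compared per kilobase of the longest coding transcript. In WT the order was *Eif4a1* (515.5 ± 23.5 CPM per kb), *Eif4g2* (277.7 ± 11.1), *Eif4e* (78.6 ± 5.31), *Eif4g1* (76.5 ± 8.29), *Eif4a2* (48.6 ± 2.62), *Eif4ebp1* (32.5 ± 2.91), *Eif4g3* (13.4 ± 2.39), *Prrc2c* (9.49 ± 0.473), *Prrc2a* (2.11 ± 0.245) and *Prrc2b* (1.74 ± 0.331). The WT libraries of *Eif4e* and *Eif4g1* overlapped, as did those of *Prrc2a* and *Prrc2b*, so the order within these pairs was not set, and the other neighbours did not overlap. In KO the *Prrc2* genes were at 6.24 ± 0.367 (*Prrc2c*), 2.43 ± 0.698 (*Prrc2b*) and 1.502 ± 0.119 CPM per kb (*Prrc2a*), and *Prrc2b* was above *Prrc2a* in every KO library. With the union of all exons as the length, *Eif4g2* and *Eif4a1* overlapped and *Eif4ebp1* came before *Eif4a2*. By either length the PRRC2 mRNAs were less abundant than those of *Eif4a1*, *Eif4g2*, *Eif4e* and *Eif4g1* in both genotypes.

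**Figure D4:**
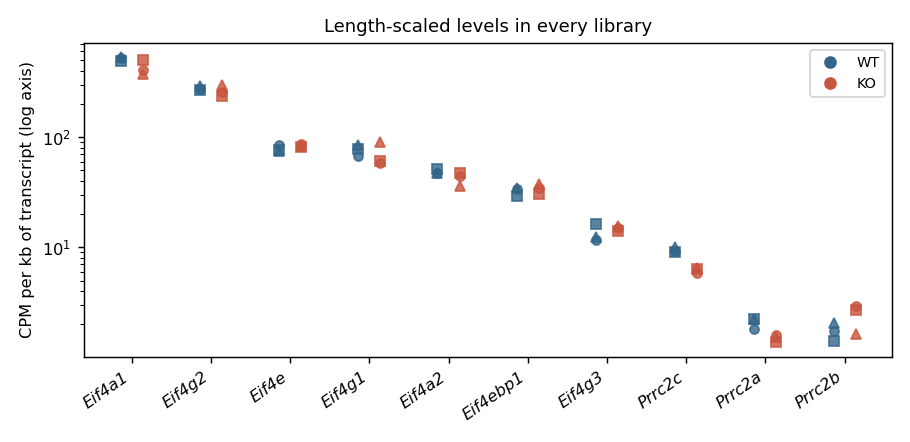
CPM per kilobase of the longest coding transcript for the 10 genes in the order of their WT means, on a log axis, with 1 point per library (shapes give the replicate number, colours the genotype). Levels run from 533.6 for *Eif4a1* in WT 3 down to 1.37 for *Prrc2a* in KO 2.

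Across the 10 genes, 6 had the lower mean in KO and 4 the higher. Their median on the log2 scale was -0.11, and that of all tested genes was -0.02, with 45.6% of them above 0. Without *Prrc2c* the median was -0.08. Genes around eIF4F in the pathway were read from lists of their own.

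Of 29 other genes of cap-dependent initiation and its control, 27 were tested, 12 higher and 15 lower in KO, with a median of -0.01. None was called by edgeR. DESeq2 called 2 higher and 1 lower, against 4.22% and 0.648% of all genes. The lower one was *Ddx3x*, a helicase that helps scanning through structured leaders, at 368, 369.9 and 419.9 CPM in WT and 263, 272 and 288 CPM in KO. Its log2 fold change was -0.49 (SE 0.09), with an adjusted p of 0.132 by edgeR and 0.000559 by DESeq2. *Ddx3x* is X-linked, and WT 1, KO 2 and KO 3 held transcripts of its Y-linked relative *Ddx3y* (60.0, 64.1 and 66.7 CPM, against at most 0.224 CPM in the others). The KO libraries were lower both among the libraries with and among those without *Ddx3y*. The higher ones were *Mknk2*, a kinase of eIF4E, at 12.1, 16.5 and 13.98 CPM in WT and 38.2, 27.1 and 21.8 CPM in KO, and the helicase *Dhx36*, at 36.4, 54.7 and 37.4 CPM in WT and 87.5, 61.7 and 69.6 CPM in KO. *Mknk2* had a log2 fold change of 1.03 (SE 0.24), with an adjusted p of 0.157 by edgeR and 0.00112 by DESeq2, and held 1 match to the AAGUGCU seed. For *Dhx36* these values were 0.77 (SE 0.20), 0.193 and 0.00579.

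All 36 genes of the other initiation factors were tested, and 14 were higher and 22 lower in KO. Their log2 fold changes stayed between -0.25 and 0.28, with a median of -0.04 and no call by either tool. The 14 genes of eIF3, the scaffold that eIF4G contacts on the ribosome, had a median of -0.09, with 10 lower and 4 higher. *Eif3j1* and *Eif3j2* were counted as separate genes. *Eif3k* had the smallest p among the lower genes (log2 fold change -0.25, SE 0.10, edgeR adjusted p = 0.470) and *Eif5*, which sets off GTP hydrolysis by eIF2, among the higher ones (0.28, SE 0.13, edgeR adjusted p = 0.500).

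Stress granule partners and the m6A pathway were read because PRRC2 proteins belong to both. Of 22 stress granule genes, 8 were higher and 14 lower (median -0.09), and 8 did not overlap between genotypes (2 higher and 6 lower), which is 36.4% against 16.4% of all tested genes. DESeq2 called 2 of them higher and 0 lower, against 4.22% and 0.648% of all genes, and edgeR called 0. *Fmr1*, which encodes an RNA-binding repressor of translation, was at 32.6, 37.7 and 30.9 CPM in WT and 48.5, 51.4 and 44.7 CPM in KO. The groups stood apart, with a log2 fold change of 0.52 (SE 0.13), an adjusted p of 0.167 by edgeR and 0.00708 by DESeq2, and 1 match to the seed. *Fmr1* is X-linked too, and KO values were higher both among the libraries with and among those without *Ddx3y*. Its relative *Fxr2* was at 17.5, 37.0 and 17.5 CPM in WT and 68.2, 60.8 and 38.6 CPM in KO (log2 fold change 1.22, SE 0.35, adjusted p 0.229 by edgeR and 0.00301 by DESeq2). The decapping helicase *Ddx6* was at 130.5, 157 and 151 CPM in WT and 101.1, 121.1 and 114.6 CPM in KO. It was lower in every KO library without a call by either tool (log2 fold change -0.38, SE 0.10, adjusted p 0.209 by edgeR and 0.0929 by DESeq2).

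In the m6A list, 13 of 19 genes were higher in KO and 6 lower, with a median of 0.04. For 5 of the 19 (26.3%) the lowest KO library exceeded the highest WT library, and for 0 the reverse held, against 8.36% and 7.99% of all tested genes. DESeq2 called 3 higher, which were *Ythdf1*, *Alkbh5* and *Ythdc1*, against 4.22% of all genes, and edgeR called 0. *Ythdf1*, a cytoplasmic reader of the mark, was at 8.86, 13.4 and 11.1 CPM in WT and 52.2, 40.5 and 21.7 CPM in KO, a log2 fold change of 1.78 (SE 0.33, adjusted p 0.132 by edgeR and 1.7e-06 by DESeq2). *Alkbh5*, a demethylase that removes the mark, was at 15.0, 29.1 and 13.8 CPM in WT and 55.6, 52.4 and 39.5 CPM in KO (log2 fold change 1.35, SE 0.30, adjusted p 0.151 by edgeR and 0.000134 by DESeq2), and held 2 seed matches. *Ythdc1*, the nuclear reader, had a log2 fold change of 0.69 (SE 0.17, adjusted p 0.171 by edgeR and 0.00897 by DESeq2). Among the lower genes the writer component *Virma* had the smallest p, with a log2 fold change of -0.34 (SE 0.24, edgeR adjusted p = 0.730).

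The integrated stress response holds back initiation through eIF2 and not eIF4F. Of its 17 tested genes, 5 were higher and 12 lower in KO, with a median of -0.12 and 1 call by DESeq2, higher in KO (14 of them had an adjusted p there, and 4.22% of all genes were called higher). That gene was *Eif2ak3*, the kinase PERK, at 4.43, 6.31 and 5.49 CPM in WT and 19.5, 12.6 and 7.40 CPM in KO (log2 fold change 1.29, SE 0.36, adjusted p 0.217 by edgeR and 0.00974 by DESeq2). *Atf4*, the transcription factor translated under this response, was at 121, 104 and 127 CPM in WT and 87.6, 96.9 and 88.2 CPM in KO. All KO libraries were below all WT libraries, with a log2 fold change of -0.37 (SE 0.10, adjusted p 0.192 by edgeR and 0.0889 by DESeq2). Genes that DESeq2 called higher in different lists ran alike over the libraries, so they are not separate observations. In *Mknk2*, *Fxr2*, *Ythdf1*, *Alkbh5*, *Ythdc1* and *Eif2ak3*, WT 2 was the highest WT library, KO 1 the highest KO library and KO 3 the lowest. *Dhx36* and *Fmr1* also had WT 2 as the highest WT library, but another order in KO. What they share was not tested.

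**Figure D5:**
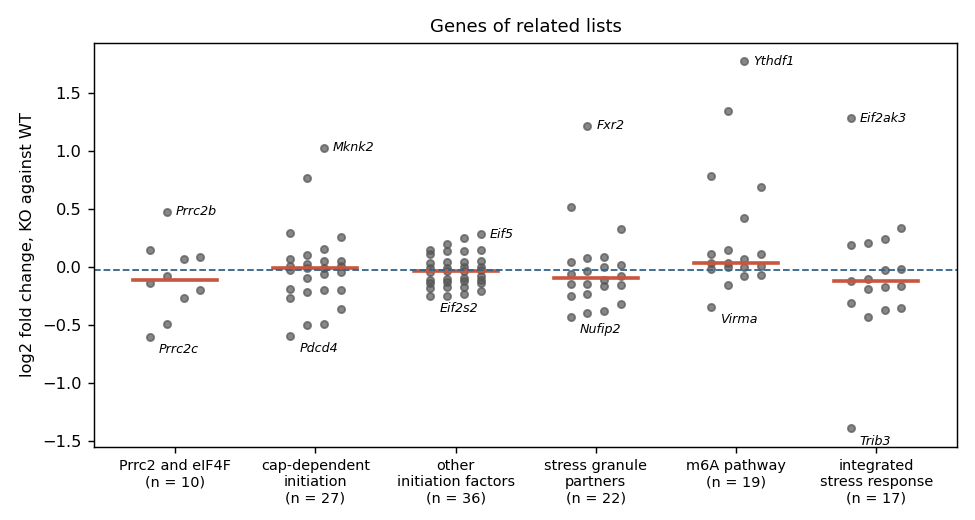
Log2 fold changes, KO against WT, of the *Prrc2* and eIF4F genes and of the tested genes of 5 related lists, with 1 point per gene, the list's median as a red line and the median of all tested genes (-0.02) as a dashed line. The gene with the highest and the one with the lowest value of each list are labelled, and the medians lie between -0.12 and 0.04.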

How the data were processed

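The deposited table held raw counts per gene, which the authors made from paired 150 bp reads (SMART-seq v4, Nextera XT) with STAR against GRCm39 and GenomicAlignments. The annotation, the strand setting and the versions are not given in the sources used here. The members and gene lists were chosen with earlier results of these data known. Of the 55414 identifiers, 94% matched a symbol in the reference table. Counts were filtered by filterByExpr (16353 genes), TMM-scaled and fitted with edgeR 4.0.16's quasi-likelihood test (R 4.3.3), KO against WT without covariates (residual df 4, prior df 3.26), with Benjamini-Hochberg adjustment over all tested genes and a threshold of 0.05. Intervals are 95% intervals of this fit. DESeq2 1.42.0, the authors' tool, was the alternative and gave 14353 genes an adjusted p. Lengths, untranslated regions and shared 100-base windows came from GENCODE M21 (GRCm38), another build than the counts, so that no coordinates were carried over. Genes named from each list were those with the smallest p in each direction and those called by DESeq2, up to 4 a list, besides the next 2 nuclear genes after *Prrc2c* and the 5 most correlated with it. Correlations were over log2 CPM with a prior count of 2. Counting error apart, precision is limited by 3 libraries a group.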

Additional observations from a re-analysis of the deposited data

How the results depend on the processing

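The 14 alternatives changed the number of genes called far more than the values of the *Prrc2* and eIF4F genes. edgeR called 0 genes by the test as planned, 264 without the filter on low counts (241 higher and 23 lower in KO) and, when 1 library was left out, 0 to 217, the latter without WT 2. DESeq2 called 699. Of the 10 genes, 1 was called by DESeq2, 1 without the filter and 0 to 1 with 1 library left out (without WT 2), each time *Prrc2c*, which was chosen on these libraries. The sign of the log2 fold change was kept under all alternatives by 8 of the 10 genes. *Eif4g2* turned to 0.04285 with GC and length offsets and to 0.005239 without KO 2 (range with 1 library left out -0.1349 to 0.005239), and *Eif4g1* to 0.07283 without WT 3 and KO 1, an alternative chosen after seeing the data.

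Medians of log2 fold changes moved as follows, and the cause was not tested. With GC and length offsets the median of the 10 genes was -0.06491, and that without *Prrc2c* 0.04285. Without WT 3 and KO 1 these were 0.02035 and 0.04903, that of the stress granule list -0.0168 and that of the integrated stress response 0.03636. With 1 library left out, the median ran from -0.1508 to -0.01606 for the 10 genes, -0.08817 to 0.005239 without *Prrc2c*, -0.05418 to 0.00377 for other initiation factors, 0.0297 to 0.1208 for the m6A pathway and -0.1717 to 0.03647 for the integrated stress response. The shares of *Eif4a2* and *Eif4g1* had the same p with every length used and moved with single libraries (0.06079 to 0.8863 and -2.25 to 0.1803 percentage points), in a design of 3 against 3 that cannot pass 0.05.

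Replicate numbers gave no steady sign of pairing. Deviations from the group means correlated at -0.211, 0.251 and 0.078 between libraries of the same number, and the highest value, 0.336, was between WT 3 and KO 1. The library codes of WT 2 and KO 1 shared a stem whose meaning the labels do not give, and this pair correlated at -0.133. No libraries of the same number shared a stem. With so few libraries a group, such correlations cannot show whether any libraries shared a litter or a batch. With the replicate block edgeR called 0 genes. Depth limited *Prrc2a* most, with 166 counts in its shallowest library.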
